A study of Mus musculus with 13 samples.

Results

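The genes described here are 31 genes of glycolysis and of the hypoxia response, and their transcript levels were read in mouse microglia, the resident macrophages of the brain. They were chosen by symbol from the glycolytic enzymes and the targets of hypoxia-inducible factor 1, and all 31 stood in the expression table of 19737 genes. Of these, 30 had a mean of at least 1 FPKM (fragments per kilobase of exon, scaled by the depth of the library) over the libraries and were tested. Ankrd37 lay below that level and is given by its values.

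RNA depleted of ribosomal RNA was sequenced from 13 microglia libraries in 4 groups. Wild type mice with an adeno-associated virus of the PHP.eB capsid, which reaches the brain from the blood, carrying EGFP gave 3 libraries, and 5xFAD mice with the same EGFP virus gave 2. A further 4 libraries came from 5xFAD mice with a PHP.eB virus carrying circPOLR2A, a circular RNA, and 4 from 5xFAD mice with knockout of PKR, an antiviral kinase that double-stranded RNA switches on. The 5xFAD mouse carries human transgenes with mutations of familial Alzheimer's disease, driven in neurons by a Thy1 promoter, so the microglia themselves are not the cells in which the transgenes are meant to be expressed. The comparisons ask how microglia of 5xFAD mice differ from wild type, and whether the circular RNA or loss of PKR changes them within 5xFAD. Each circRNA library is labelled with a different exon pair of circPOLR2A. Whether the group holds a single construct is therefore not known from the labels, and the libraries were grouped by title. The labels give no vector for the PKR knockout mice, so loss of PKR and absence of the EGFP virus cannot be told apart. Nor can any difference in batch between that group and the other groups, and no ages are given. Nothing in the labels says that the libraries of a group came from separate animals, so the p-values measure the spread between these libraries.

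Glycolysis splits glucose into pyruvate in the cytosol, and lactate dehydrogenase can turn the pyruvate into lactate, which leaves the cell through monocarboxylate transporters. Hypoxia-inducible factor 1 joins HIF-1α, the product of Hif1a, to ARNT and raises transcription of most genes of the pathway. Prolyl hydroxylases, the products of the Egln genes, mark HIF-1α for degradation when oxygen is present. Microglia that respond to amyloid or to inflammatory stimuli are known for a shift from oxidative metabolism toward glycolysis.

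Hypoxia-inducible factors bind a core of ACGTG or GCGTG, called the hypoxia response element. The core was searched on both strands in the 250 bases before the RefSeq start of each gene (RefSeq, GRCm38.p6, 1 or more starts for a gene). All 31 genes had a RefSeq promoter, and 29 of them (93.5%) held at least 1 match, against 41.5% of all 27025 genes with a promoter and 62.2% of the 8567 tested genes with a promoter. A gene was counted by its start with the most matches, so genes with more starts had more chances. By window, 37 of the 45 windows of these genes held a match, against 38.6% of all 32851 windows. At least 2 matches stood in 20 of the 31 genes (64.5%) and in 32.1% of the tested genes. The palindrome CACGTG, an E-box also bound by other basic helix-loop-helix proteins, holds 2 overlapping matches and was counted as 2. The GC content was close, with a median of 61.6% in the windows of these genes and 60.0% in those of all tested genes. A match is a run of letters and no evidence of binding. Among the 13 genes that were higher in 5xFAD EGFP than in wild type (below), 11 held a match, and among the other 17 tested genes all 17 did, so the match did not separate them. Gpi1 and Tpi1 were the genes without a match.

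The windows of 6 genes are shown because they span the range of response described below: Egln3 and Hif1a with the largest change, Ldha and Pgk1 from the enzymes that rose, and Bnip3 and Ankrd37 as hypoxia targets with many matches that changed little or stayed near the limit of detection. Each runs 5′ to 3′ on the strand of the gene and ends at the base before its start, and capitals mark the core matches. Egln3 is at chr12:54203875-54204124 (minus strand), Hif1a at chr12:73907617-73907866 (plus), Ldha at chr7:46845554-46845803 (plus, one of its starts), Pgk1 at chrX:106186850-106187099 (plus), Bnip3 at chr7:138909507-138909756 (minus) and Ankrd37 at chr8:45999851-46000100 (minus).
Egln3: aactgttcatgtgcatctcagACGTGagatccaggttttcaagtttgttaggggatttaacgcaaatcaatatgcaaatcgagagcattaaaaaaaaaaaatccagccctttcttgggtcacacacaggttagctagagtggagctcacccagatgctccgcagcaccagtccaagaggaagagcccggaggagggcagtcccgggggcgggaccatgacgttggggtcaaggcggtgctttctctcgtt
Hif1a: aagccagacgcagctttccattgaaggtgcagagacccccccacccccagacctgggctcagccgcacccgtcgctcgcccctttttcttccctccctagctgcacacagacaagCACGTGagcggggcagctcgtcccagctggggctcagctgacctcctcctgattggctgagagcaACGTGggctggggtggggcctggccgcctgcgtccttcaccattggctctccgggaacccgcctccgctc
Ldha: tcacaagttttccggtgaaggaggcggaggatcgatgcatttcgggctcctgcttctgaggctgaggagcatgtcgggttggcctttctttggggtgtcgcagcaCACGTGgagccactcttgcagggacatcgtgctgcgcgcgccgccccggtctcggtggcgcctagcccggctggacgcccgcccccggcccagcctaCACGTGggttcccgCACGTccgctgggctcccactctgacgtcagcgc
Pgk1: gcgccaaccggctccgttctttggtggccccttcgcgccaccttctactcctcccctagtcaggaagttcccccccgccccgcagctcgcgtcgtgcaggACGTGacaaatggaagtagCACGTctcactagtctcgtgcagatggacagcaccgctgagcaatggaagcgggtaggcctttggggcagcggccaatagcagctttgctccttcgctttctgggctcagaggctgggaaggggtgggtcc
Bnip3: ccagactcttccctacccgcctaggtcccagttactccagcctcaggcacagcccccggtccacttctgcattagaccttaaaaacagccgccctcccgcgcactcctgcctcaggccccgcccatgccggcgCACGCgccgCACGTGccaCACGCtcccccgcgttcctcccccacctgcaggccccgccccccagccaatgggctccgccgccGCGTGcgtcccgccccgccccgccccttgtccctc
Ankrd37: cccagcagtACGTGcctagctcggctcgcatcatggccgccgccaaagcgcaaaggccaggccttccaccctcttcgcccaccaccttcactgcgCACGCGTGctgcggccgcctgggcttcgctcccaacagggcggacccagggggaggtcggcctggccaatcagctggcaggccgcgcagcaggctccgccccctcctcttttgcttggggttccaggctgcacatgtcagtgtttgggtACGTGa
The window of Egln3, the gene with the largest change, held 1 match, 229 bases before the start. Those of Ldha and Bnip3 held 5 each, with 2 CACGTG in Ldha and 1 in Bnip3. Hif1a held 3, Pgk1 held 2 and Ankrd37, which was barely detected, held 4.

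The depth recovered from the FPKM steps was 57.7 to 70.0 M (mega) fragments in the PKR knockout libraries and 45.2 to 54.9 M in all others. Of these, 49.3% to 60.7% fell in listed genes. Depth thus set the knockout group apart from every other group, and its part in the knockout comparisons was not tested. The summed FPKM of 8 microglial markers was 2809 in wild type replicate 3 and 3612 to 5322 in the other libraries. That replicate also held the highest sums of oligodendrocyte markers (1610, against 231 to 813 elsewhere), of astrocyte markers (304, against 94.2 to 242) and of neuronal markers (101, against 25.4 to 85.9). Endothelial markers summed to 72.1 to 167 in wild type and to 32.7 to 92.6 in 5xFAD libraries, and 6 of 8 were lower in 5xFAD EGFP than in wild type. Mural cell markers (56.3 to 123 in wild type, 23.6 to 55.1 in 5xFAD) and border macrophage markers (41.9 to 66.3 and 15.5 to 28.6) were lower in the same direction, 5 of 6 and 6 of 6 of those tested. Of 8 astrocyte markers 1 was higher in 5xFAD EGFP than in wild type, and of 8 microglial markers 1 was lower. In bulk RNA, fewer cells of a type and less RNA per cell cannot be told apart. Eif2ak2, the gene for PKR, was read at 3.35, 4.61, 3.31 and 4.16 FPKM in the knockout libraries, below each other 5xFAD library. Its log2 change against 5xFAD EGFP was -0.64 (SE 0.11, limma adjusted p = 0.0644), above the threshold of 0.05, and passed in 5 of 17 alternative settings. Against wild type its change in knockout was -0.27 (adjusted p = 0.0486), a call held in 9 of 18 settings. With circRNA it was higher than in knockout by 0.845 (adjusted p = 0.001465), held in 19 of 19.

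Microglia of 5xFAD mice held more transcript of Hif1a and of most enzymes from glucose phosphate isomerase to lactate dehydrogenase than microglia of wild type mice. With the EGFP virus in both, 13 of the 30 tested genes rose and 0 fell, against a background of 7.65% of all 10817 tested genes higher and 6.35% lower (14% in all), and without 5xFAD EGFP replicate 1 the count was 7, with 6.16% of all tested genes called. Egln3, one of the 13 and of the genes counted below in the other comparisons with wild type, passed the filter on low values only through the 5xFAD groups, so its place in these counts was fixed in part by the filter. Against wild type, 16 rose and 0 fell with circRNA (background 17.8% higher, 8.05% lower, 25.8% in all), and 17 rose and 1 fell in PKR knockout (background 17.5% higher, 19.4% lower, 37% in all). These 3 comparisons share the wild type libraries. The median log2 change over the 30 genes was 0.25, 0.45 and 0.51, while over all tested genes it was -0.03, 0.02 and -0.05. In 17 of the 30 genes each of the 10 5xFAD libraries stood above each wild type library, and in 0 each stood below. Egln3 and Higd1a, both among the 17, were under 1 FPKM on average in wild type and met the filter only through the 5xFAD groups. Of all tested genes, 12.7% stood wholly above and 5.84% wholly below. In 5xFAD EGFP the genes that rose, Egln3 apart, were Hif1a, Pfkfb3 and most of the main enzymes from the second step of glycolysis to lactate and its export, while Slc2a1 and 2 of the 3 hexokinases passed in no comparison with wild type.

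The number of genes that appeared lower moved with the setting. With each library rescaled to the same summed FPKM, the median of all tested genes moved to -0.17 in 5xFAD EGFP, -0.20 with circRNA and -0.24 in PKR knockout against wild type. Then 13 genes rose and 3 fell (Slc2a1, Pfkp and Ldhb), 14 rose and 4 fell, and 14 rose and 6 fell, while 34.3%, 52.5% and 61% of all tested genes passed. In PKR knockout the count of 20 of 30 is thus near the share of all genes, and so is the count with circRNA. Quantile normalization gave 14 and 2, 17 and 2, and 15 and 3 (18.4%, 29.4% and 36.3% of all tested genes), voom on recovered fragments 14 and 2, 16 and 2, and 14 and 6 (18.7%, 34.2% and 50.6%), and median-ratio scaling 14 and 1, 17 and 1, and 18 and 1 (16.1%, 27.8% and 38.9%). In PKR knockout 16 genes rose and 5 fell without wild type replicate 2 (35.6% of all tested genes called), with the scaling as in the values reported. The 13 genes that rose in 5xFAD EGFP rose also in each of these 4 alternatives to the scaling. Without 5xFAD EGFP replicate 1, where the share of all tested genes called was 6.16%, Pfkl, Aldoa, Tpi1, Pgk1, Pgam1 and Ldha were lost. Pfkfb3 was lost without 5xFAD EGFP replicate 2, and Pgam1 also without wild type replicate 2.

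**Figure D1:**
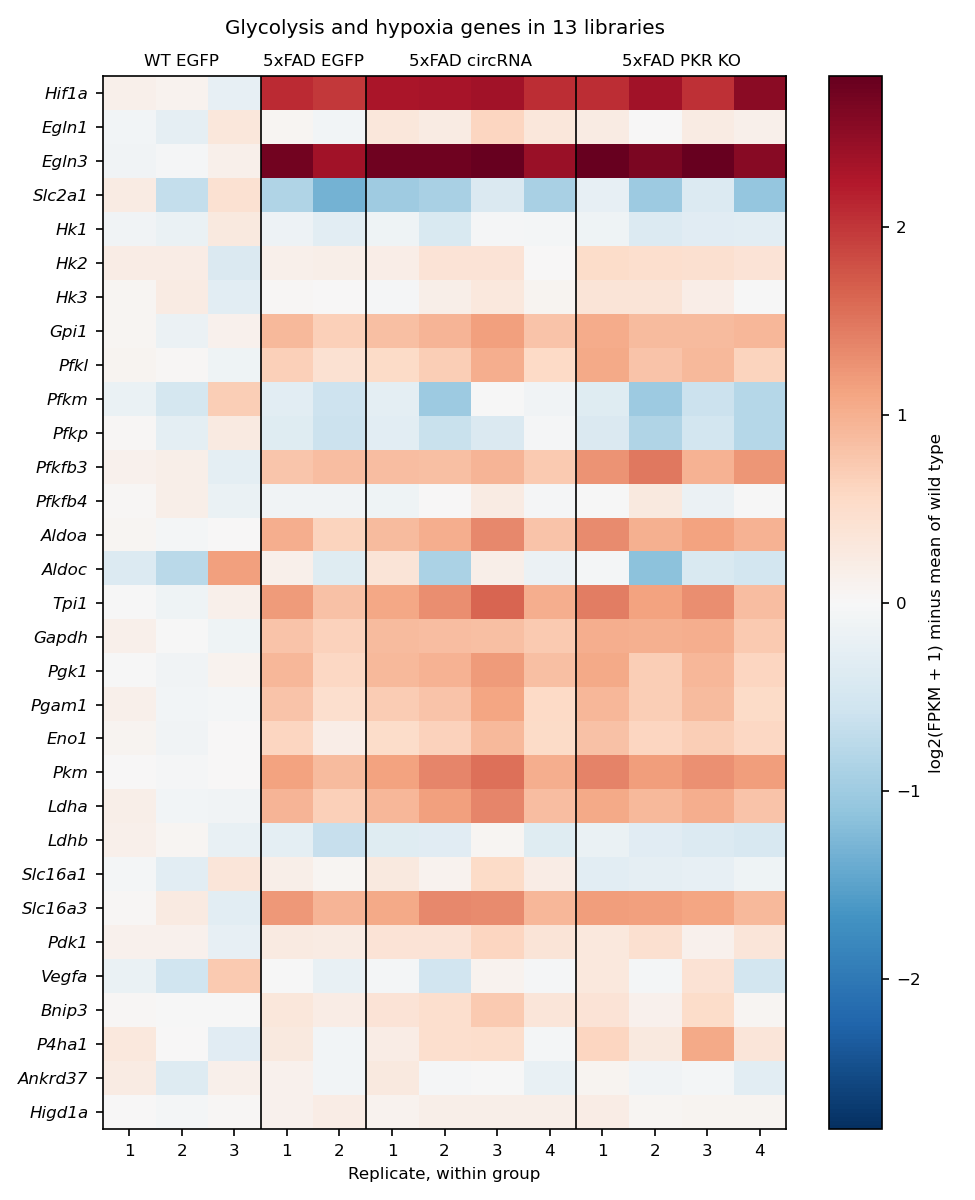
Level of each of the 31 genes (rows) in each of the 13 libraries (columns, by group and replicate), as log2(FPKM + 1) minus the wild type mean of that gene (colour scale, red above and blue below wild type). Hif1a and Egln3 are dark red in all 10 5xFAD libraries, the enzymes from Gpi1 to Ldha are lighter red, and Aldoc, Pfkm and Vegfa stand out in wild type replicate 3.

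**Figure D2:**
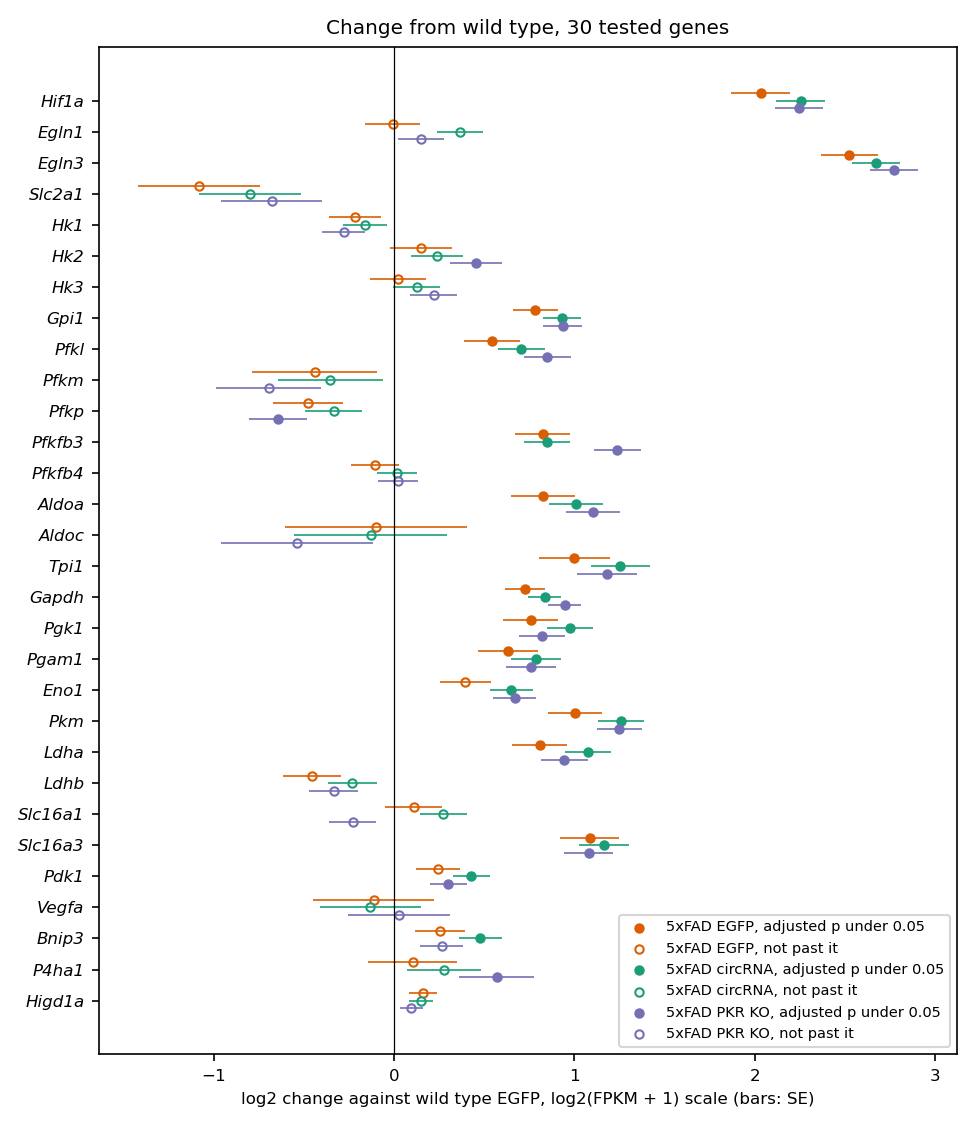
Log2 change against wild type EGFP (x axis, log2(FPKM + 1) scale) of the 30 tested genes for 5xFAD EGFP, 5xFAD circRNA and 5xFAD PKR knockout. Bars are the SE from limma, and filled points have an adjusted p under 0.05. The 3 groups lie close together for most genes, with Egln3 at 2.53 to 2.77 and Hif1a at 2.03 to 2.25 far to the right.

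Of the factor itself and its hydroxylases, Hif1a rose and Egln1 did not pass the test, while the values of Egln3 are a description. Hif1a (chromosome 12, 73901375 to 73947530, plus strand, GRCm38) was at 12.3, 11.9 and 9.20 FPKM in wild type, and at 49.96 and 46.6 in 5xFAD EGFP. With circRNA it was at 57.6, 58.4, 60.7 and 49.6, and in PKR knockout at 49.5, 60.3, 48.3 and 68.5. Wild type and 5xFAD libraries were far apart, the ratio of the means being 4.34 for 5xFAD EGFP. The log2 change was 2.03 in 5xFAD EGFP (SE 0.16, limma adjusted p = 5.76e-06), 2.25 with circRNA (adjusted p = 2.24e-07) and 2.25 in PKR knockout (adjusted p = 2.00e-07).

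Egln3 (chromosome 12, 54178981 to 54203860, minus strand) encodes PHD3, a prolyl hydroxylase that is itself a target of hypoxia-inducible factors. It was nearly absent from wild type microglia, at 0.294, 0.362 and 0.529 FPKM, and passed the filter on low values only through the 5xFAD groups. In 5xFAD EGFP it reached 7.99 and 6.14 FPKM, with circRNA 8.14, 8.20, 8.84 and 6.49, and in PKR knockout 9.14, 7.61, 10.5 and 7.19. The ratios of the means to wild type were 17.9, 20.04 and 21.8, the largest of the 31 genes. On the log2(FPKM + 1) scale, which understates the change of a gene this low in wild type, the change was 2.53, 2.67 and 2.77, given as a description because the filter had selected the gene by its 5xFAD values. Egln1 encodes PHD2, the hydroxylase that mainly sets HIF-1α levels in most cells. It was at 8.21 to 12.6 FPKM in wild type and 9.34 to 15.5 in 5xFAD, the groups overlapped, and its log2 change was -0.01 in 5xFAD EGFP (limma adjusted p = 0.984) and 0.37 with circRNA (adjusted p = 0.0506), which passed in 6 of 18 alternative settings.

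Glucose enters through transporters and is trapped by hexokinases. Slc2a1 encodes GLUT1, the glucose transporter of the blood-brain barrier and of many other cells (chromosome 4, 119108711 to 119137983, plus strand). It stood at 82.4, 43.6 and 93.6 FPKM in wild type and at 38.6 and 27.1 in 5xFAD EGFP. With circRNA it was at 34.7, 36.8, 52.7 and 36.7, and in PKR knockout at 59.6, 33.8, 52.8 and 32.3. Wild type replicates 1 and 3 stood above all other libraries and replicate 2 among them. The log2 changes were -1.08 (SE 0.34, limma adjusted p = 0.0515), -0.80 (adjusted p = 0.0560) and -0.68 (adjusted p = 0.0774), so none passed. They passed in 8 of 16, 8 of 18 and 6 of 18 alternative settings, the first with values from -1.41 to -0.83. The pair of libraries with most Slc2a1 also had the highest sums of endothelial markers. These sums were 129 and 167 in wild type replicates 1 and 3 and 72.1 in replicate 2, and their part in the result was not tested.

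The hexokinase transcripts were mostly Hk2, with Hk3 next and Hk1 lowest. Hk2, the inducible form, was at 27.8, 28.0 and 17.97 FPKM in wild type and at 26.8 and 27.0 in 5xFAD EGFP. With circRNA it was at 27.4, 31.9, 31.9 and 24.2, and in PKR knockout at 35.1, 33.9, 33.2 and 31.6. All 4 knockout libraries stood above the wild type libraries, and Hk2 rose there by 0.46 (SE 0.14, limma adjusted p = 0.0266). The other 5xFAD libraries overlapped wild type, with log2 changes of 0.15 and 0.24 that did not pass. The call for Hk2 held in 10 of 18 alternative settings and was lost without wild type replicate 3, knockout replicate 1 or knockout replicate 2. Hk1, of the outer mitochondrial membrane, and Hk3, a form of myeloid cells, passed in no comparison, with log2 changes against wild type of -0.28 to -0.16 and 0.02 to 0.22. In PKR knockout Hk1 passed as lower in 4 of 18 alternative settings. Hk2 made 48.4% to 57.0% of the summed hexokinase FPKM in wild type and 53.1% to 62.2% in 5xFAD libraries.

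Phosphofructokinase makes the committed step, and its isoenzymes went apart. Pfkl, the liver form that also prevails in macrophages, was at 8.83, 8.495 and 7.59 FPKM in wild type and at 11.5 to 18.3 in the 10 5xFAD libraries, with no overlap. Its log2 change was 0.54 (SE 0.15, limma adjusted p = 0.0348), 0.71 (adjusted p = 0.00171) and 0.85 (adjusted p = 0.000358). The first of these calls held in 9 of 16 alternative settings and was lost when any of its 5 libraries was left out, and the other pair held in all 18. Pfkm, the muscle form, was at 7.54, 5.91 and 14.8 FPKM in wild type and 3.80 to 8.73 in 5xFAD, and passed in no comparison (in PKR knockout it passed as lower in 4 of 18 alternative settings). The high value is that of replicate 3, which also had the highest oligodendrocyte marker sum, and the part of other cells in it was not tested. Pfkp, the platelet form, was low, at 1.88, 1.30 and 2.31 FPKM in wild type and 1.10, 0.554, 0.946 and 0.619 in PKR knockout. It was the 1 gene that fell, by 0.64 on the log2 scale in PKR knockout (SE 0.16, limma adjusted p = 0.00836), and its changes in 5xFAD EGFP and with circRNA were -0.48 and -0.34 (adjusted p = 0.131 and 0.153).

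The bifunctional PFKFB enzymes make fructose 2,6-bisphosphate, the strongest activator of phosphofructokinase. Pfkfb3 (chromosome 2, 11471433 to 11554077, minus strand), the form with the highest kinase activity and a target of hypoxia-inducible factor, was at 22.5, 23.1 and 16.9 FPKM in wild type and at 36.2 and 38.5 in 5xFAD EGFP. With circRNA it was at 38.5, 38.0, 41.0 and 34.8, and in PKR knockout at 50.7, 59.5, 41.3 and 50.4. The order of the group means was wild type, 5xFAD EGFP, circRNA and PKR knockout, with 5xFAD EGFP and circRNA overlapping. Log2 changes against wild type were 0.82 (SE 0.15, limma adjusted p = 0.00423), 0.85 (adjusted p = 0.000470) and 1.24 (adjusted p = 1.94e-05). Pfkfb4, its paralogue, stayed between 5.98 and 8.48 FPKM in all libraries and passed in no comparison.

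From glucose 6-phosphate to pyruvate, most of the housekeeping forms of the enzymes rose. In each of Gpi1, Aldoa, Tpi1, Gapdh, Pgk1, Pgam1, Eno1 and Pkm all 10 5xFAD libraries stood above all wild type libraries. In 5xFAD EGFP 7 of the 8 passed the test, with log2 changes from 0.63 in Pgam1 to 1.00 in Tpi1 and Pkm, and Eno1 did not (0.40, SE 0.14, limma adjusted p = 0.0907, passed in 4 of 16 alternative settings). With circRNA and in PKR knockout all 8 passed, from 0.65 to 1.26.

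Pkm encodes pyruvate kinase, which makes pyruvate and ATP (positions 59656368 to 59679375 on the plus strand of chromosome 9). It was at 36.3, 34.8 and 36.2 FPKM in wild type and at 78.9 and 67.0 in 5xFAD EGFP. With circRNA it was at 78.8, 93.9, 106 and 73.0, and in PKR knockout at 94.96, 82.0, 87.8 and 81.4. The wild type libraries lay close together and well under the lowest 5xFAD library, and the log2 change in 5xFAD EGFP was 1.00 (SE 0.15, limma adjusted p = 0.000972). The table counts whole genes, so the PKM1 and PKM2 splice forms are not resolved.

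Tpi1, triose phosphate isomerase, was at 17.2, 15.97 and 19.3 FPKM in wild type and at 40.9 and 31.5 in 5xFAD EGFP. It reached 38.1, 44.7, 55.7 and 36.2 with circRNA and 48.5, 39.6, 44.2 and 32.7 in PKR knockout. Its log2 change was 1.00 (SE 0.20, limma adjusted p = 0.00556), 1.26 and 1.18. Aldoa, the aldolase of muscle and most other tissues, averaged 64.6 ± 2.3 FPKM (SD, n = 3) in wild type and was higher in 5xFAD, at 116 ± 23 (n = 2), 132 ± 23 (n = 4) and 140 ± 17 (n = 4). GENCODE holds a pair of genes under this symbol, and the position of the first (chromosome 7, 126795234 to 126800751, minus strand) was used. Aldoc, the aldolase of brain and of astrocytes above all, did not follow: wild type libraries had 24.3, 18.5 and 72.6 FPKM and 5xFAD libraries 13.9 to 41.4, with log2 changes of -0.54 to -0.10 that did not pass. With marker levels of neurons, astrocytes, oligodendrocytes, endothelial and mural cells as a covariate, the change turned and passed as higher with circRNA and in PKR knockout (limma adjusted p = 0.0467 and 0.0357). The value of 72.6 is again that of wild type replicate 3, which had the highest astrocyte marker sum.

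Gapdh averaged 6.84 ± 0.76 FPKM (SD, n = 3) in wild type and was higher in 5xFAD, at 11.9 ± 0.99 (n = 2), 13.0 ± 0.72 (n = 4) and 14.1 ± 1.4 (n = 4), with log2 changes of 0.72 (SE 0.11, limma adjusted p = 0.00104), 0.84 and 0.95. Its level is uncertain, because 79 other annotated genes, processed pseudogenes being common for it, share at least 95% identity over 150 bases or more with its transcript and together cover 88.0% of it. Its exons in all annotated forms span 4133 bases against 1420 in the longest RefSeq transcript, so FPKM per exon union lowers its level beside other genes. Pgk1, which makes ATP from 1,3-bisphosphoglycerate, had 9.32, 8.68 and 10.0 FPKM in wild type and 14.4 to 22.6 in 5xFAD. Such copies were also found for Pgk1 (4 genes, covering 68.8% of its transcript), Pkm (2, 65.5%), Ldha (4, 55.0%), Ldhb (1, 76.8%), Eno1 (3, 85.6%) and Bnip3 (5, 94.2%). Reads could be split between a gene and its copies. In all 14 of the 31 genes had at least 1.

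**Figure D3:**
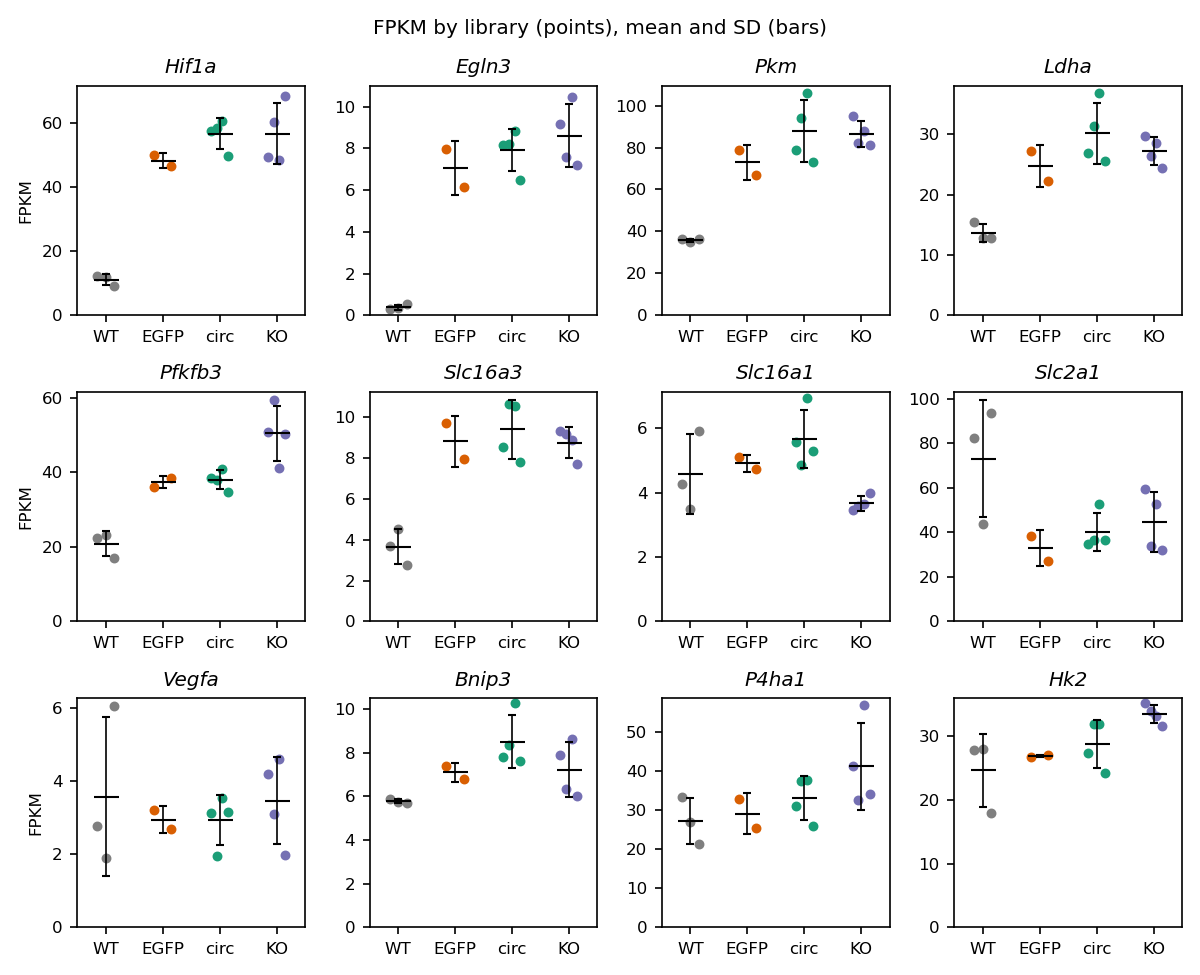
FPKM (y axis, from 0) of 12 genes in each library (points), with the mean and SD of each group (bars): wild type EGFP (WT), 5xFAD EGFP (EGFP), 5xFAD circRNA (circ) and 5xFAD PKR knockout (KO). Hif1a, Egln3, Pkm, Ldha, Pfkfb3 and Slc16a3 show no overlap between wild type and 5xFAD libraries, Slc2a1 and Vegfa vary most within wild type, and Slc16a1 is lowest in the knockout group.

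Pyruvate was followed to lactate and its export. Ldha (chromosome 7, 46841475 to 46855627, plus strand) encodes the A subunit of lactate dehydrogenase, which favours lactate formation. It was at 15.4, 12.9 and 12.8 FPKM in wild type and at 27.2 and 22.3 in 5xFAD EGFP. It was at 27.0, 31.4, 36.8 and 25.5 with circRNA and at 29.7, 26.5, 28.5 and 24.4 in PKR knockout. Its log2 change was 0.81 (SE 0.15, limma adjusted p = 0.00445), 1.08 (adjusted p = 7.15e-05) and 0.94 (adjusted p = 0.000157), without overlap of wild type and 5xFAD. Ldhb, the B subunit, which favours the reverse step, had 97.8, 91.7 and 76.2 FPKM in wild type and 56.2 to 92.0 in 5xFAD, with log2 changes of -0.46, -0.23 and -0.34 (adjusted p = 0.0877, 0.244 and 0.0714). Ldhb passed as lower in 5 of 16, 4 of 18 and 5 of 18 alternative settings, with log2 changes down to -0.76, -0.66 and -0.78. Ldha was 13.6%, 12.3% and 14.4% of the summed lactate dehydrogenase FPKM in wild type and 27.0% to 30.8% in the 10 5xFAD libraries. This share is taken within a library and does not move with the scaling between libraries, and the B subunit remained the more abundant transcript per length in all 13.

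Slc16a3 encodes MCT4, the low-affinity transporter of cells that export lactate (chromosome 11, 120948480 to 120960868, plus strand). It was at 3.71, 4.50 and 2.76 FPKM in wild type and at 9.68 and 7.93 in 5xFAD EGFP, with 7.80 to 10.6 with circRNA and 7.67 to 9.29 in PKR knockout. The log2 change was 1.09 (SE 0.16, limma adjusted p = 0.00103), 1.16 and 1.08. Slc16a1, which encodes MCT1, the carrier of higher affinity that also takes up lactate, did not pass against wild type, with log2 changes of 0.11, 0.27 and -0.23 and adjusted p of 0.717, 0.155 and 0.191. In 3 of 17 alternative settings it passed as higher with circRNA, and in 3 of 17 as lower in PKR knockout. Slc16a3 was 31.7% to 56.3% of the summed FPKM of the pair in wild type and 59.6% to 72.9% in 5xFAD. Pfkfb3 likewise went from 73.9% to 76.2% of its pair with Pfkfb4 in wild type to 83.2% to 88.1% in 5xFAD, and Pfkl from 30.7% to 54.1% of the phosphofructokinases to 56.1% to 77.8%. The share of Aldoa overlapped, with 47.2% to 77.1% in wild type and 74.4% to 90.3% in 5xFAD. Wild type replicate 3 had the lowest share of Aldoa, of Slc16a3 and of Pfkl. The gaps between wild type and 5xFAD were narrow for Slc16a3 (56.3% against 59.6%) and Pfkl (54.1% against 56.1%), and the shares were not tested.

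**Figure D4:**
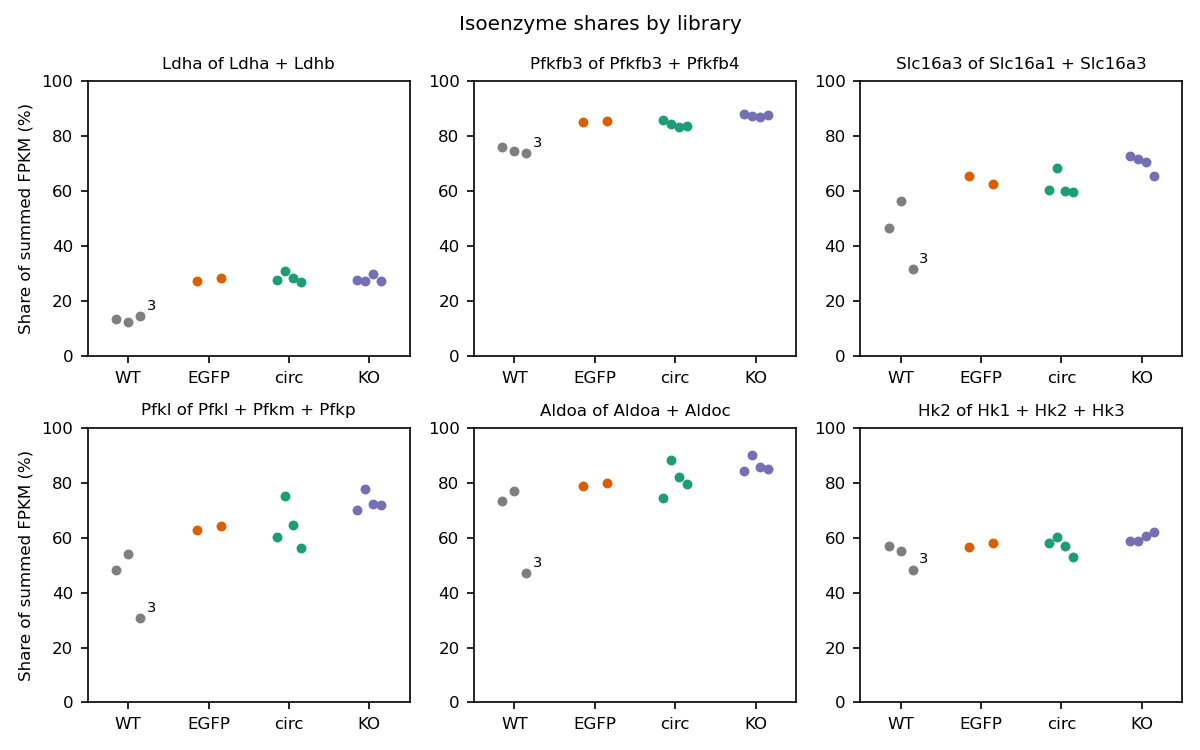
Share (%) of 1 isoenzyme gene in the summed FPKM of its family in each library (points) by group, with wild type replicate 3 numbered. The shares of Ldha, Pfkfb3, Slc16a3 and Pfkl do not overlap between wild type and 5xFAD libraries, while those of Aldoa and Hk2 do.

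The remaining targets of hypoxia-inducible factor among the 31 genes had smaller changes. Pdk1, the kinase that keeps pyruvate out of the citric acid cycle, had 9.02, 9.04 and 6.91 FPKM in wild type and 9.11 to 13.0 in 5xFAD, all above wild type. It did not pass in 5xFAD EGFP (0.25, SE 0.12, limma adjusted p = 0.231) and rose by 0.43 with circRNA (adjusted p = 0.00886) and by 0.30 in PKR knockout (adjusted p = 0.0365), the last held in 7 of 18 alternative settings. Bnip3, a mitophagy receptor, had 5.90, 5.76 and 5.69 FPKM in wild type and 6.01 to 10.3 in 5xFAD, and rose by 0.48 with circRNA (SE 0.12, adjusted p = 0.0104). P4ha1, a collagen prolyl hydroxylase, had 33.2, 27.0 and 21.3 FPKM in wild type and 41.3, 32.4, 56.8 and 34.1 in PKR knockout, and rose there by 0.57 (SE 0.21, adjusted p = 0.0476), a call that held in 7 of 18 settings. In PKR knockout the call of Pdk1 was lost without wild type replicate 3 or knockout replicate 1, 2 or 4, and that of P4ha1 without wild type replicate 2 or 3 or knockout replicate 1 or 3.

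Vegfa, the main vascular growth factor of the hypoxia response, passed in no comparison. Its FPKM was 2.76, 1.91 and 6.03 in wild type and 1.94 to 4.61 in 5xFAD, with log2 changes of -0.13 to 0.03 and adjusted p of 0.874 for 5xFAD EGFP. With neuronal, astrocyte, oligodendrocyte, endothelial and mural marker levels as a covariate it passed as higher in PKR knockout (0.60, adjusted p = 0.0303), against 0.03 without the covariate. Higd1a, a mitochondrial protein induced by hypoxia, was at 0.904 to 1.04 FPKM in wild type and 1.05 to 1.28 in 5xFAD, and passed in no comparison, although no library overlapped (with quantile normalization it passed with circRNA and in PKR knockout). Ankrd37 was at 0.232 to 0.867 FPKM in wild type and 0.297 to 0.926 in 5xFAD, with 17 to 65 recovered fragments a library, and was not tested.

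Some values followed wild type replicate 3 or markers of other cells. Slc2a1, Hk1, Pfkm, Pfkp, Aldoc and Vegfa had their highest value of all 13 libraries in that replicate. Without it, 12 genes rose and 1 fell in 5xFAD EGFP (18.5% of all tested genes passed), 18 rose with circRNA (23.8%), and 15 rose and 2 fell in PKR knockout (35%). Pfkp still passed as lower in PKR knockout without it, as in each of the 17 alternative settings. A further fit had the mean level of neuronal, astrocyte, oligodendrocyte, endothelial and mural markers as a covariate. In it 13 of the 13 genes that rose in 5xFAD EGFP rose again, as did 16 of 16 with circRNA. In PKR knockout 15 of 18 calls held (Hk2, Pdk1 and P4ha1 were lost). Of all tested genes 22.6%, 29% and 31.3% passed. Some genes passed only with the covariate, Aldoc among them. Border macrophage and blood markers were left out of the covariate, so those cells were not adjusted for.

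**Figure D5:**
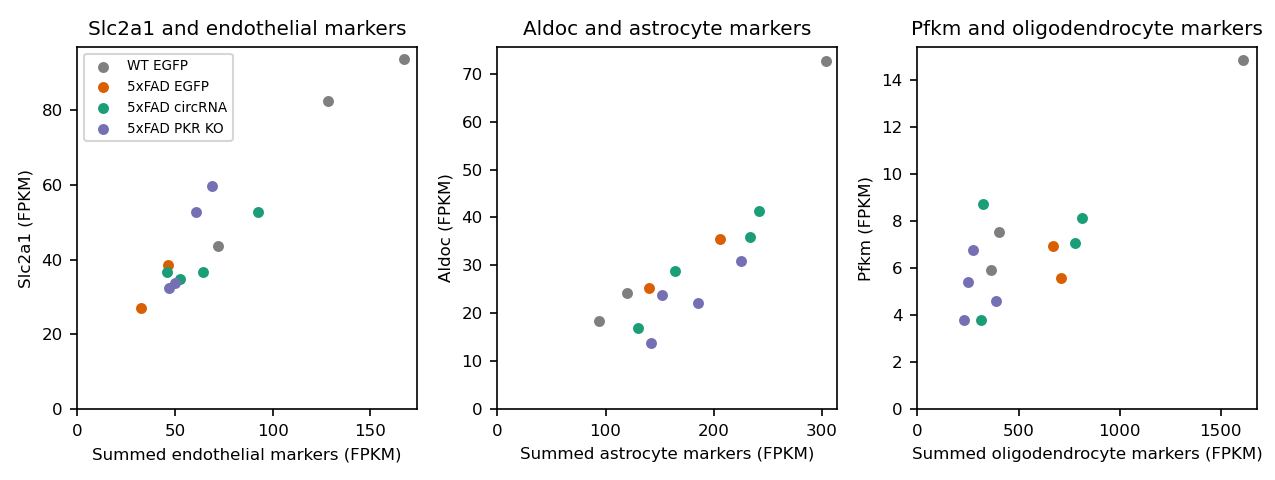
FPKM of Slc2a1, Aldoc and Pfkm (y axes) against the summed FPKM of endothelial, astrocyte and oligodendrocyte markers (x axes), 1 point a library, coloured by group. The point at the far right of each panel is wild type replicate 3, and in the left panel Slc2a1 is high in the libraries with endothelial sums of 129 and 167.

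The circular RNA changed none of the 30 genes by the test. Against 5xFAD EGFP, 0 of 30 passed in limma, as did 0 of all 10817 tested genes (background 0%), and 1 gene (Egln1) had an unadjusted p under 0.05, against 4.83% of all tested genes. The count was 0 of 30 in every alternative, including voom on recovered fragments. Log2 changes ran from -0.03 to 0.37 with a median of 0.16, against 0.08 for all tested genes. That of Hif1a was 0.22 with an SE of 0.15, and its adjusted p was 0.739. Pdk1, Bnip3 and Egln1 stood higher in all 4 circRNA libraries than in both EGFP libraries, against 16.6% of all tested genes that did so, and 0 of the 30 stood lower in all 4 (2.65%).

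Loss of PKR changed none of the 30 genes by the test either. Against 5xFAD EGFP, 0 of 30 passed in limma (background 0.0832%, 9 genes, all higher), and 2 had an unadjusted p under 0.05, against 13.0% of all tested genes. Log2 changes ran from -0.44 (Aldoc) to 0.47 (P4ha1) with a median of 0.15, while that of all tested genes was 0.01. Pfkfb3 was nearest to the threshold, with 50.7, 59.5, 41.3 and 50.4 FPKM in knockout against 36.2 and 38.5 (log2 change 0.41, adjusted p = 0.263). It, Hk2 and Pkm were higher in all 4 knockout libraries than in both EGFP libraries (17.7% of all tested genes were), and Slc16a1 was lower in all 4 (17.0%). Slc16a1 was at 3.46, 3.59, 3.66 and 4.00 FPKM in knockout and 5.10 and 4.72 in 5xFAD EGFP, with a log2 change of -0.34 (adjusted p = 0.368). With library weights 2 genes passed, Pfkfb3 higher and Slc16a1 lower, and with the pair of groups fitted alone Slc16a1 did. Of all tested genes 7.6% and 5.33% passed in these settings, so both counts are below the share of all genes.

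Between circRNA and PKR knockout 1 of 30 genes passed, against 6.19% of all tested genes (4.28% higher and 1.91% lower with circRNA), and 2 had an unadjusted p under 0.05, against 25.5%. It was Slc16a1, which lies on chromosome 3 from 104638668 to 104658462 (plus strand). Its FPKM was 5.57, 4.86, 6.95 and 5.29 with circRNA, with no overlap with the knockout libraries. The log2 change was 0.50 (SE 0.12, limma adjusted p = 0.0348). The call held in 10 of 18 alternative settings and was lost without circRNA replicate 1, 3 or 4 or knockout replicate 1, 2 or 3, with adjusted p up to 0.0936. Egln1 was also higher in all 4 circRNA libraries (15.1% of all tested genes were), and Pfkfb3 lower in all 4 (4.44%), with a log2 change of -0.39 (adjusted p = 0.0726). Any difference in vector or in batch between these groups cannot be told apart from PKR, since the labels name no vector for the knockout mice and give library names for that group only.

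The rest of the pathway was read from lists written down with earlier results of these data in view, so their counts are descriptive and are to be read beside the shares of all tested genes given above for each comparison. These were 7.65% higher and 6.35% lower in 5xFAD EGFP, 17.8% and 8.05% with circRNA, and 17.5% and 19.4% in PKR knockout. Slc2a6, Tigar, Pygl and Lox were under 1 FPKM on average in wild type and met the filter on low values only through the 5xFAD groups. Of 15 other hexose transport and glycolysis genes, 3 rose and 0 fell in 5xFAD EGFP (median log2 change 0.13, against -0.03 of all tested genes), 5 rose and 0 fell with circRNA, and 5 rose and 1 fell in PKR knockout. Slc2a6, a hexose transporter of lysosomal membranes in macrophages, had 0.376, 0.503 and 0.364 FPKM in wild type and 2.99 to 5.86 in 5xFAD. Its log2 change in 5xFAD EGFP was 1.54 (SE 0.15). Tigar, which lowers fructose 2,6-bisphosphate and so opposes Pfkfb3, had a log2 change of 0.62 (SE 0.10). Slc2a5, the fructose transporter of microglia, fell by 0.77 in PKR knockout (limma adjusted p = 0.0115), a call lost without wild type replicate 1. The others that rose in at least 1 comparison were Slc16a7, Slc2a3 and Eno1b, of which Slc2a3 is outside the rule for named genes and is named after its value was seen. In 5xFAD EGFP the call of Slc16a7 was lost without wild type replicate 3 or 5xFAD EGFP replicate 1 or 2. With circRNA that of Eno1b held in 6 of 18 alternative settings and was lost without any 1 of the wild type libraries or of circRNA replicates 1 to 3, and that of Slc2a3 was lost without wild type replicate 3 or circRNA replicate 2. In PKR knockout the calls of Eno1b and Slc2a3 held in 13 of 18 and 9 of 17, and both were lost without wild type replicate 2 or 3 or knockout replicate 1 or 3.

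Among 11 tested regulators of the factor, Epas1 went the other way from Hif1a. Epas1 encodes HIF-2α, which is abundant in endothelium. It was at 57.1, 30.9 and 76.4 FPKM in wild type and 13.7 to 29.98 in 5xFAD, and fell by 1.49 in 5xFAD EGFP (SE 0.36, limma adjusted p = 0.0173). Like Slc2a1, it was highest in wild type replicates 1 and 3, with the highest endothelial marker sums, and the part of endothelial cells was not tested. The call of Epas1 was lost without wild type replicate 1 or 5xFAD EGFP replicate 2. Elob, of the elongin complex that serves the VHL ubiquitin ligase, rose by 0.53 (adjusted p = 0.0225), a call lost without 5xFAD EGFP replicate 1 or 2. In all 1 of the 11 rose and 1 fell in 5xFAD EGFP, 4 rose and 1 fell with circRNA, and 2 rose and 2 fell in PKR knockout, where 17.5% and 19.4% of all tested genes did. Eloc, its partner, was higher with circRNA than in PKR knockout by 0.42 (adjusted p = 0.00284).

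Of 19 other targets of hypoxia-inducible factors, 5 rose and 0 fell in 5xFAD EGFP. Lox, a collagen cross-linking oxidase, had 0.390, 0.329 and 0.440 FPKM in wild type and 4.75 and 4.61 in 5xFAD EGFP. Its log2 change was 2.04 (SE 0.11). Mif, a cytokine, rose by 1.502 (limma adjusted p = 9.98e-06) and Bhlhe40, a transcriptional repressor, by 1.32 (adjusted p = 0.00198). Hmox1 also passed (adjusted p = 0.0393), a call held in 10 of 16 alternative settings and lost without wild type replicate 3 or 5xFAD EGFP replicate 1 or 2, and is outside the rule for named genes. Lox was also the 1 gene of these lists that passed between PKR knockout and 5xFAD EGFP, at 6.58, 7.49, 7.99 and 9.33 FPKM in knockout (0.63, SE 0.10, adjusted p = 0.0430), a call held in 7 of 17 alternative settings and lost without 5xFAD EGFP replicate 1 or 2 or knockout replicate 2, 3 or 4. Between circRNA and PKR knockout 0 of the 19 were higher with circRNA and 2 lower (4.28% and 1.91% of all tested genes). One of them was Lox (-0.37, adjusted p = 0.0239), held in 15 of 19 settings and lost without circRNA replicate 1 or 4 or knockout replicate 2 or 3. With circRNA 7 targets rose and 0 fell, and in PKR knockout 6 rose and 3 fell. For 19 genes, 3 lower is a share below the 19.4% of all tested genes. Those 3 were Car12, Ndrg1 and Tfrc, which lie outside the rule for named genes and are named after their values were seen. The call of Car12 held in 11 of 17 alternative settings and that of Ndrg1 in 7 of 18, and both were lost without wild type replicate 1 or knockout replicate 2 or 4, among others.

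Next to glycolysis, 3 further lists were counted. Of the 8 genes of the pentose phosphate pathway, which makes NADPH, 1 rose in 5xFAD EGFP (Tkt, transketolase, by 0.41, limma adjusted p = 0.0153, lost without 5xFAD EGFP replicate 1 or 2), 6 with circRNA and 5 in PKR knockout, and 0 fell in all 3. Of 12 genes for entry of pyruvate into mitochondria, 1 rose in each of the 3 comparisons with wild type (Mpc1, a subunit of the mitochondrial pyruvate carrier, by 0.36, 0.38 and 0.29). The first of these calls was lost without wild type replicate 2 or 5xFAD EGFP replicate 1 or 2, and the last without wild type replicate 2. In PKR knockout 5 of these 12 fell (19.4% of all tested genes did), among them Pcx, pyruvate carboxylase, by 0.55 (adjusted p = 0.0296), Pdk2 by 0.45 (adjusted p = 0.0180) and Pdha1, a subunit of pyruvate dehydrogenase, by 0.42 (adjusted p = 0.00534). The call of Pcx was lost without wild type replicate 3 or knockout replicate 2 or 4, and that of Pdk2 without wild type replicate 1 or 3 or knockout replicate 2. The other 2, Pdp1 and Pdpr, were named after their values were seen, and the call of Pdp1 held in 6 of 17 alternative settings. Against PKR knockout, Pdha1 and Dld, subunits of the same complex, were higher with circRNA by 0.38 and 0.35. The call of Pdha1 held in 9 of 19 alternative settings and was lost without any of the 8 libraries except circRNA replicate 2. That of Dld held in 14 of 19 and was lost without circRNA replicate 1 or knockout replicate 1 or 2. Of 8 genes of glycogen and glucose synthesis, Pygl, a glycogen phosphorylase, had a log2 change of 0.70 (SE 0.14) and Gbe1, the glycogen branching enzyme, fell by 0.34 (adjusted p = 0.00384) in 5xFAD EGFP. Of these 8, 1 rose and 0 fell with circRNA, and 1 rose and 2 fell in PKR knockout.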

How the data were processed

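Total RNA of microglia was depleted of ribosomal RNA and made into stranded libraries, per the labels' protocols. The authors deposited 1 table of FPKM values for 19737 genes in 13 libraries, not pooled. The submitters' processing notes name Bowtie2 2.3.5, HISAT2 2.1.0, featureCounts 1.5.1 and mm10, and their roles and strand setting are not given in the sources used here. Lengths and positions came from GENCODE M21 (GRCm38), in which 19418 genes (98.4%) matched. Of 47180 values below 0.3 FPKM, 90.6% were whole fragments within 0.02 (4% by chance), which gave depths of 45.2 to 70.0 M (mega) fragments.

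Tests were run on log2(FPKM + 1), which understates changes of low genes, with limma 3.58.1 (R 4.3.3). The 10817 genes whose mean over all libraries reached 1 FPKM were tested. The fit held 4 group means and 9 residual degrees of freedom, with an intensity trend, and Benjamini-Hochberg adjustment over all tested genes within each of 6 comparisons (threshold 0.05). FPKM are not counts, so voom on recovered fragments was an alternative only. The script was tested on simulated data. Near-identical copies were found with blastn 2.17.0. The members and lists were chosen with earlier results of these data known. Any member may be named, and from each further list at most 4 genes that passed, by size of change, and 1 gene of these lists is not reported here. Fit alternatives were 11, and each library was left out in turn.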

Additional observations from a re-analysis of the deposited data

Results flagged for a closer look

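In 6 of 62 groups of 4 libraries, 1 library stood apart from the other 3 by more than Dixon's 95% limit. Chance gives about 1 in 20, or 3.1 of 62. Of the 6, 3 concern circRNA replicate 3: Slc2a1 at 52.7 FPKM (others 34.7 to 36.8), Ldhb at 92.0 (others 69.1 to 70.6) and Pdk1 at 13.0 (others 10.8 to 11.1). That library also had the highest share of fragments in listed genes (60.7%) and a blood marker sum, haemoglobin genes included, of 100, against 8.35 to 32.3 in the other circRNA libraries. Whether these bear on the high values was not tested. Gapdh was lowest in PKR knockout replicate 4, at 12.1 FPKM (others 14.6 to 14.9). Higd1a was lowest in circRNA replicate 1, at 1.13 FPKM (others 1.22 to 1.23), and highest in PKR knockout replicate 1, at 1.28 (others 1.05 to 1.08).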

How the results depend on the processing

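Counts of genes that passed stayed within 1.5 times the values reported, with these exceptions. In 5xFAD EGFP against wild type (13), leaving out 1 library gave 7 to 13, with 5.23% to 18.5% of all tested genes called (other settings 9 to 16, with 4.71% to 34.3%). PKR knockout against 5xFAD EGFP (0) gave 1 with the 2 groups alone and 2 with library weights (arrayWeights), where 5.33% and 7.6% of all tested genes passed. CircRNA against PKR knockout (1) gave 0 with no filter on low values, with a mean of at least 5 FPKM (which leaves Slc16a1 untested) and with quantile normalization, 2 with median-ratio or same-sum scaling (7.81% and 6.31% of all tested genes), 4 with library weights (29.2%, so 4 of 30 is below the share of all genes), and 0 to 1 with 1 library left out. Other causes were not tested. CircRNA against wild type (16) gave 16 to 19, with 15.9% to 52.5% of all tested genes called, and PKR knockout against wild type (18) gave 15 to 21, with 28.7% to 61%. CircRNA against 5xFAD EGFP stayed at 0.

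Of the values that passed the test in either setting, 3 changed sign; genes that passed in neither, such as Hk2, Hk3, Egln1 and Vegfa in 5xFAD EGFP, also changed sign. With neuronal, astrocyte, oligodendrocyte, endothelial and mural marker levels as a covariate, Aldoc passed as higher with circRNA (0.38, adjusted p = 0.0467) and in PKR knockout (0.46, adjusted p = 0.0357). With same-sum scaling, Eloc with circRNA was at -0.0772. The cause was not tested.

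With the replicate number as a block, counts were 14, 0, 0, 18, 21 and 1 for 5xFAD EGFP against wild type, circRNA and PKR knockout against 5xFAD EGFP, circRNA and PKR knockout against wild type, and circRNA against PKR knockout, with 12.1%, 0%, 0.203%, 24.8%, 35.8% and 4.14% of all tested genes called. The 14 were 13 higher and 1 lower, the 18 were 17 and 1, and the 21 were 17 and 4. Same-numbered libraries correlated at a mean of 0.12, 0.07, 0.33, 0.02, 0.14 and 0.19, not above 0.1 for every pair of the comparisons with 3 or more pairs. The correlated values were deviations from group means, which sum to 0 within each small group. They cannot decide whether the numbers pair the libraries. Precision is limited by the 2 libraries of 5xFAD EGFP and, for Ankrd37, Egln3 in wild type and Higd1a, by low counts (17 to 65, from 37, and 131 to 225 fragments a library).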

Other observations

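The summed level of an enzyme family did not always follow its leading gene. The lactate dehydrogenase pair summed to 88.9 to 113 FPKM in wild type and to 78.5 to 129 in 5xFAD libraries, while the monocarboxylate transporter pair summed to 7.99 to 8.69 and 11.7 to 17.5, without overlap. The phosphofructokinases summed to 15.7 to 24.7 FPKM in wild type and to 17.9 to 27.8 in 5xFAD, and the hexokinases to 37.1 to 50.7 and 45.5 to 59.7, both with overlap. The PFKFB pair summed to 22.9 to 30.9 and 41.5 to 68.0 FPKM. These sums are levels per length, were chosen after the values were seen, and were not tested.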
